A study of Homo sapiens with 11 samples.

Results

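DNA replication genes are described here as 46 genes whose products license origins, unwind and copy DNA, hold the polymerases on the template, supply nucleotides or restore DNA methylation on the new strand. They were taken by gene symbol from the joined count table, by a rule that used no values, though earlier results of these data were known. Of the 46 symbols 46 had a row among 38557 annotated genes. By role they were sorted into 10 sub-groups. These were the origin recognition complex (6 genes), helicase loading and its inhibitor (3), the MCM2-7 helicase (6), helicase activation (6), polymerases and primase (9), the clamp and its loader (6), the single-strand binding protein RPA (3), Okazaki fragment maturation (2), nucleotide supply (4) and maintenance methylation (1). Counts came from MOLM-13, an established cell line of human acute myeloid leukemia that carries a KMT2A rearrangement, grown in culture and exposed for 72 h. There were 4 libraries in the diluent DMSO, 4 in MI-503 at 1 µM and 3 in both inhibitors, MI-503 at 1 µM and PR-957 (ONX-0914) at 100 nM, called the combination below (replicates 1, 2 and 4). MI-503 inhibits Menin, a partner protein of KMT2A, and PR-957 inhibits PSMB8, a catalytic subunit of the immunoproteasome. No library had PR-957 alone, so its effect was read on top of MI-503 and in 1 cell line.

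A cell copies its genome once per division. In late mitosis and G1 the origin recognition complex, CDC6 and CDT1 load the ring-shaped MCM2-7 helicase onto DNA, a step called licensing, and geminin (GMNN) holds CDT1 back once S phase has begun. In S phase CDC45 and the GINS complex join the ring to form the active helicase, and primase, DNA polymerases, the sliding clamp PCNA and RPA then work at the fork on nucleotides made by enzymes such as ribonucleotide reductase. Many of these genes are known targets of the E2F transcription factors, which are active in dividing cells, whereas several subunits of the origin recognition complex are known to be made at a more even level. Acute myeloid leukemia lines such as MOLM-13 divide in culture and express the whole machinery.

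Totals per library ran from 18891243 to 41153974 counted fragments, and the members had between 241 and 22592 counts in a library, so none was near the counting limit. The labels do not say whether replicates were separate cultures, so p-values measure the spread between these samples, which may be technical. Combination replicate 1 stood apart: over all genes its chi-square against replicates 2 and 4, divided by the degrees of freedom, was 19.4 and 33.3, against 4.59 between those replicates and 1.71 to 5.97 within DMSO and MI-503. Without it the members' log2 fold changes of the combination against DMSO moved by -0.17 to 0.19, with a median of 0.07. Values without it are given below for many of the genes named, and all other values rest on the fit with it. Of 10 myeloid marker genes, 9 were expressed, and CD14 lay at 0.427 CPM or less in DMSO and MI-503. The summed level of the 10 ran from 1604 to 1699.6 CPM in DMSO, from 2215 to 2358 CPM in MI-503 and from 2342 to 4640.4 CPM in the combination, and its part in the changes below was not tested. The markers did not move as 1: LYZ stood at 88.0 to 106 CPM in DMSO, 371 to 381 CPM in MI-503 and 599, 1812 and 2513 CPM in the combination, MPO fell from MI-503 to the combination (log2 fold change -0.74), and FLT3 fell against DMSO under MI-503 (-0.49) and the combination (-0.75). T cell and erythroid markers summed to at most 0.276 and 0.452 CPM, B cell markers to 24.1 to 51.5 CPM, mostly PAX5 with MS4A1 at 0, and fibroblast and epithelial markers to 19.2 to 35.9 CPM, mostly KRT18.

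At the level of RNA nearly the whole machinery was lower after MI-503 and lower again in the combination. Summed over the 46 genes, the level was 7049 ± 154 CPM in DMSO (SD, n = 4), 5469 ± 260.2 CPM after MI-503 (n = 4) and 3974 ± 259 CPM under both inhibitors (n = 3), where CPM are counts relative to the library total, after scaling by TMM, a factor that evens out differences in library composition. By library the sum was 7216, 6847, 7099 and 7034 CPM in DMSO, 5177, 5323, 5714 and 5659.9 CPM in MI-503 and 3773, 3883 and 4267 CPM in the combination. No library of one treatment reached the range of another. In RNA from bulk cells, fewer cells that make these transcripts and less RNA per cell cannot be told apart.

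MI-503 was set against DMSO to ask which of these genes respond to inhibition of Menin. By edgeR (a two-sided quasi-likelihood test, p adjusted by Benjamini-Hochberg over all 14683 genes tested, calls made at an adjusted p under 0.05), 44 of the 46 members were lower, against 29.3% of all genes tested, and 0 were higher, against 22.0%. The members not called were ORC2 and ORC3, both of the origin recognition complex. The median log2 fold change was -0.36 for the members and -0.03 for all genes tested, and no member fell beyond 2-fold. The 44 members called were also those whose 4 MI-503 libraries all lay below all 4 DMSO libraries, a pattern seen in 29.1% of all genes. The balance of calls over all genes depended on scaling (3235 higher and 4307 lower with TMM, 3968 and 3356 with upper-quartile factors), while 42 members stayed lower with upper-quartile factors and CDT1 and PRIM2 lost their call.

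The combination was set against DMSO to see the change under both inhibitors. Here 43 members were lower, against 32.8% of all genes tested, and 1 was higher, ORC3, against 31.7%, with ORC2 and ORC4 not called. The median log2 fold change was -0.79 for the members and 0.01 for all genes, and 10 members fell beyond 2-fold. GINS2 (-1.39), MCM10 (-1.31), CDC6 (-1.27), TYMS (-1.16) and MCM6 (-1.13) had the lowest log2 fold changes of the 46. In a fit without combination replicate 1 these were -1.24, -1.18, -1.11, -1.04 and -1.03, and 5 members fell beyond 2-fold. In 43 members every combination library lay below every DMSO library, and in 1 every one lay above, against 31.2% and 29.3% of all genes. Without combination replicate 1 the counts were again 43 lower and 1 higher, with a median of -0.74. This comparison shares its DMSO libraries with the one before.

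The combination was also set against MI-503, to ask what PR-957 added. In it 39 members were lower, against 23.8% of all genes tested, and 3 were higher, against 23.6%; the median log2 fold change was -0.44, and 0.00 over all genes. The members called higher were ORC3, ORC4 and ORC5, and ORC1, ORC2, PRIM2 and RRM1 were not called. In 36 members all combination libraries lay below all MI-503 libraries and in 3 all lay above, against 23.7% and 23.8% of all genes. Without combination replicate 1 there were 41 lower and 1 higher: ORC1 and RRM1 became called as lower, and ORC4 and ORC5 lost their call. The map of all members by library shows the treated libraries darkening from left to right, with several subunits of the origin recognition complex as pale rows at the top.

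**Figure D1:**
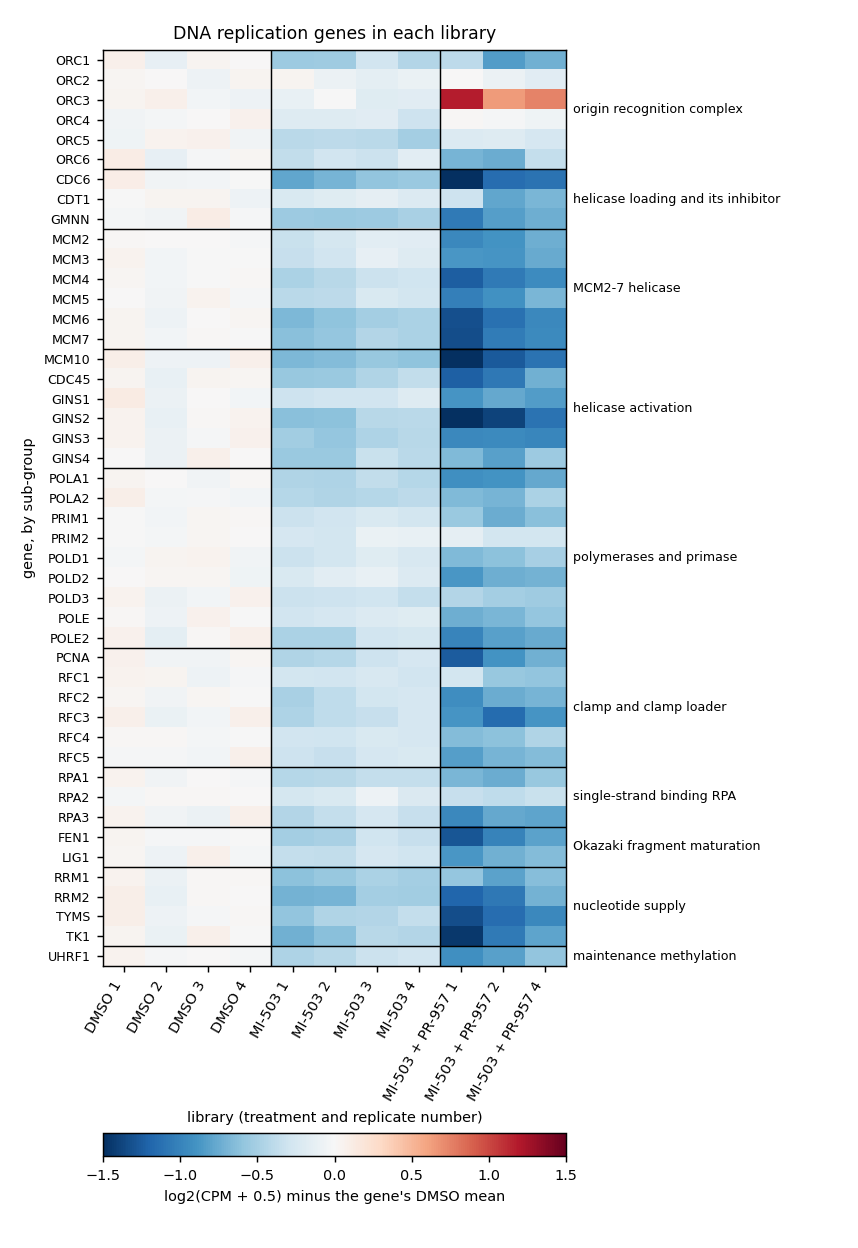
Each row is 1 of the 46 genes, in order of sub-group, and each column 1 of the 11 libraries; color gives log2(CPM + 0.5) minus the gene's mean over the DMSO libraries, blue for lower and red for higher. The MI-503 columns are light blue and the combination columns darker blue in nearly all rows, ORC3 is red in the 3 combination libraries, and ORC2 and ORC4 stay near white there.

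Sub-groups differed in size of change, as a description of their medians. Against DMSO the median log2 fold changes in MI-503 and in the combination were -0.55 and -1.04 for nucleotide supply, -0.50 and -1.0 for helicase activation, -0.35 and -0.97 for MCM2-7, and -0.54 and -0.88 for helicase loading and its inhibitor. They were -0.37 and -0.89 for Okazaki fragment maturation, -0.31 and -0.77 for the clamp and its loader, -0.36 and -0.67 for RPA and -0.28 and -0.64 for polymerases and primase. The origin recognition complex had -0.26 and -0.15, and was the sub-group in which the combination held members called in both directions. Without combination replicate 1 the medians in the combination were -0.92 for helicase activation, -0.89 for MCM2-7 and -0.88 for nucleotide supply. They were -0.77 for helicase loading and its inhibitor and -0.17 for the origin recognition complex. Nucleotide supply thus had the lowest median only with that library in the fit. UHRF1, the sole gene of maintenance methylation, had -0.37 and -0.77. All 40 members outside the origin recognition complex were called lower against DMSO under either treatment.

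**Figure D2:**
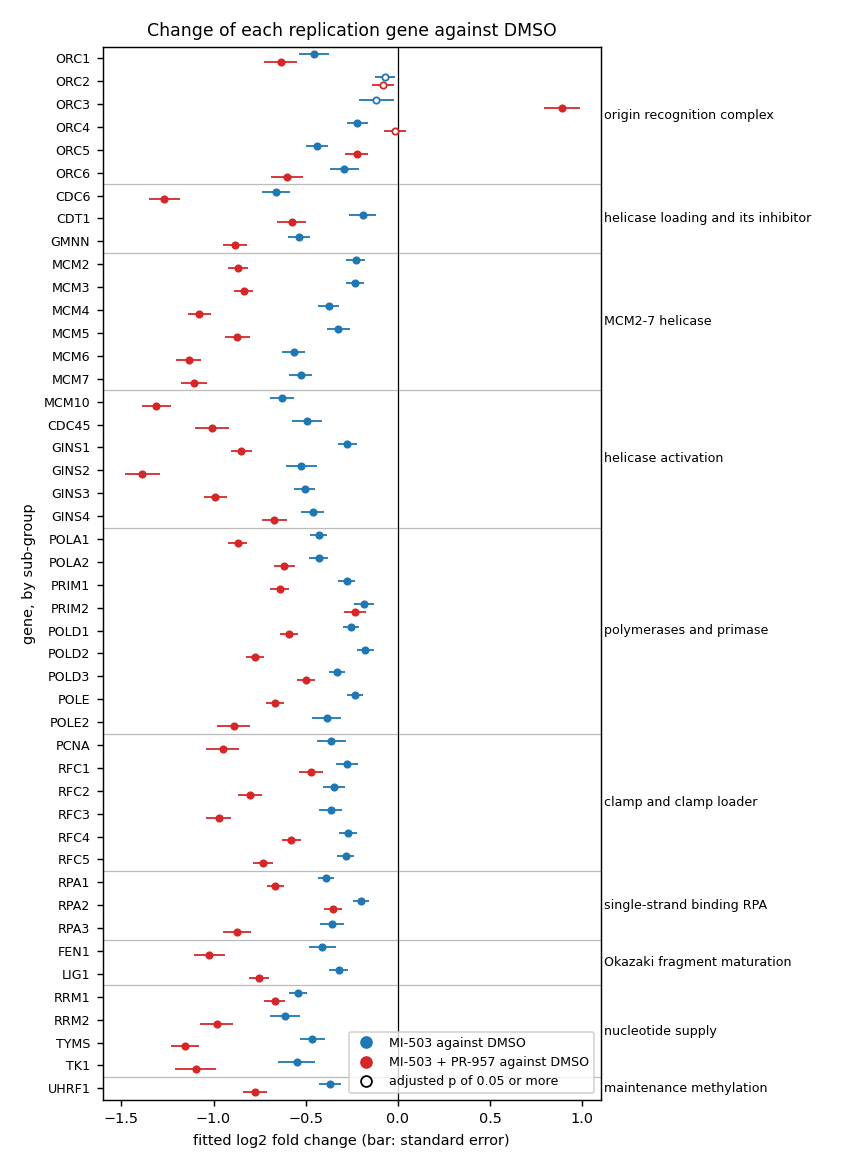
Fitted log2 fold change against DMSO of each gene in MI-503 (blue) and in the combination (red), with its standard error as a bar; open points have an adjusted p of 0.05 or more. Red points lie left of blue ones in all rows but ORC3, ORC4 and ORC5, and the red point of ORC3 lies at 0.89.

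Promoters were read because the members moved together and E2F factors are known to act on genes of this kind. RefSeq promoter windows of 300 bases (250 before and 50 after the transcription start, GRCh38.p14) were at hand for 40 of the 46 members. They were searched on both strands for the E2F-type octamers TTTCCCGC, TTTCGCGC, TTTGCCGC and TTTGGCGC, for CCAAT, the box bound by NF-Y, and for TTTGAA, the CHR element known from genes of G2 and mitosis. An E2F-type octamer lay in 20 of the 40 members (50%), against 3.99% of 27305 genes with a window and 6.64% of 10694 tested genes with one. CCAAT lay in 62.5% of members and 42.6% of the tested genes, and TTTGAA in 2.5% and 14.1%. Over windows, of which a gene can have several, an octamer was in 4.91% of those of tested genes. Among members it was in 4 of 6 for MCM2-7, 3 of 4 for helicase loading and its inhibitor and 2 of 3 for maintenance methylation. It was in 3 of 7 for helicase activation, 4 of 10 for polymerases and primase and 1 of 2 for Okazaki fragment maturation. Shares were lower for the clamp and its loader (2 of 7), nucleotide supply (1 of 6), the origin recognition complex (1 of 7) and RPA (0 of 1). The 6 windows of MCM2-7 belong to MCM2, MCM3, MCM6 and MCM7, each of which had an octamer in at least 1 window. A match describes the letters of a window and is not a bound site.

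To show what these windows look like, the 150 bases before and 30 after the start follow for 4 genes with an octamer that fell in the combination (MCM6, MCM2, CDC6 and GINS2), for MCM10, which fell as far without one, for ORC3, which rose, and for ORC2, which was not called. They are in the direction of the gene, 5′ to 3′, from RefSeq on GRCh38.p14, with E2F-type octamers on either strand in capitals; where octamers on opposite strands overlap, the capitals run through both.
MCM6 (chr2:135876414-135876593, minus strand): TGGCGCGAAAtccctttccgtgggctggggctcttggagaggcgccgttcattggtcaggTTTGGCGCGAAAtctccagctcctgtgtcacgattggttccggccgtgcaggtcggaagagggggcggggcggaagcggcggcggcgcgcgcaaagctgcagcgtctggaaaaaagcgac
MCM2 (chr3:127598261-127598440, plus strand): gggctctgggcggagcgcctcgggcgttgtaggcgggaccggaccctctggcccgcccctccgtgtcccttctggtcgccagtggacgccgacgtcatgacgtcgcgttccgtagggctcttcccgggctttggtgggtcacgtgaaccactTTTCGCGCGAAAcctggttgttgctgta
CDC6 (chr17:40287729-40287908, plus strand): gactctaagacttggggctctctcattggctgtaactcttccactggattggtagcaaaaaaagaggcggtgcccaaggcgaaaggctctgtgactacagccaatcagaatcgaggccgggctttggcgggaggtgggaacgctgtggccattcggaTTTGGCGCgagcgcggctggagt
GINS2 (chr16:85688925-85689104, minus strand): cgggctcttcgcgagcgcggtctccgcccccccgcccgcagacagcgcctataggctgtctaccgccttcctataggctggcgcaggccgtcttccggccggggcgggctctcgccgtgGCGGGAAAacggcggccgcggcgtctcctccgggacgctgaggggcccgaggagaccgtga
MCM10 (chr10:13161408-13161587, plus strand): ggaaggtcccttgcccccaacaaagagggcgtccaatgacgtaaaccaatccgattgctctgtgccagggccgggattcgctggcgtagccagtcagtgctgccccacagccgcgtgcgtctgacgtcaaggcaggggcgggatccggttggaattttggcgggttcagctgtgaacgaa
ORC3 (chr6:87589985-87590164, plus strand): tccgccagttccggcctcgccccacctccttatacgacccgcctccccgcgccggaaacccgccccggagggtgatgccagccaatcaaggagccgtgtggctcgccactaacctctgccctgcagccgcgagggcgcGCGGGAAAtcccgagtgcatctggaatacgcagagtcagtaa
ORC2 (chr2:200963631-200963810, minus strand): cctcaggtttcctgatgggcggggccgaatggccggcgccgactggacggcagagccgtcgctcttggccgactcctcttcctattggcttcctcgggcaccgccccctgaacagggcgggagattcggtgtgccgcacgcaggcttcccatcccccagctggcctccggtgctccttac
MCM2 and MCM6 carried octamers on both strands that overlap, just after the start in MCM2 and at 2 places in MCM6, the first of them cut by the edge of the stretch shown. CDC6, GINS2 and ORC3 had 1 octamer each. ORC3 thus held an octamer and rose, and MCM10, CDC45, FEN1 and POLD2, which fell, held none of the 4 searched in their windows, as did 20 of the 40 members with a window. Close spellings were not searched, so a window without a match can still hold an E2F-type site.

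The origin recognition complex is the 6-subunit platform that marks origins, and its RNAs did not move as 1 unit. ORC1, the subunit known to be made and degraded with the cell cycle (chr1:52372829-52404471, minus strand, coordinates of genes here and below on hg38), stood at 80.8, 70.3, 78.5 and 76.6 CPM in DMSO, 52.3, 52.5, 62.3 and 56.3 CPM in MI-503 and 57.96, 42.5 and 46.1 CPM in the combination. Its log2 fold change was -0.46 (SE 0.081, adjusted p = 0.000157) in MI-503 and -0.64 (SE 0.088, adjusted p = 6.39e-06) in the combination, both from edgeR. All treated libraries lay below the DMSO range, but combination replicate 1, at 58.0 CPM, lay among the MI-503 libraries, and the treatments were not called different with that library in the fit (edgeR adjusted p = 0.101) but were without it (0.00013). ORC6, a small subunit outside the ATPase core, was lower in all 3 comparisons, at -0.29, -0.60 and -0.31 on the log2 scale.

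ORC3, a core subunit (chr6:87590067-87677824, plus strand), was the member that rose. It stood at 27.8, 28.3, 26.04 and 25.6 CPM in DMSO, 24.9, 26.8, 23.7 and 23.8 CPM in MI-503 and 61.3, 42.2 and 45.3 CPM in the combination. DMSO and MI-503 overlapped (edgeR adjusted p = 0.326), whereas the combination libraries lay above all others, with replicate 1 as the highest. The log2 fold change was 0.89 (SE 0.098, adjusted p = 4.28e-07) against DMSO and 1.01 (SE 0.098, adjusted p = 3.74e-07) against MI-503 by edgeR, and 0.72 and 0.79 without replicate 1. Of its exon bases 0.197% are shared with another gene, AKIRIN2.

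ORC4 (chr2:147930396-148021604, minus strand) and ORC5 (chr7:104126341-104208047, minus strand), also core subunits, were lower in MI-503 and lay between it and DMSO, or back at DMSO, in the combination. ORC4 stood at 22.3, 22.7, 23.2 and 24.1 CPM in DMSO, 20.1, 20.2, 20.4 and 18.5 CPM in MI-503 and 23.4, 22.8 and 22.1 CPM in the combination. The MI-503 libraries were all below the rest, and DMSO and the combination overlapped. ORC4's log2 fold change was -0.22 (SE 0.056, adjusted p = 0.00329) in MI-503, -0.02 (SE 0.059, adjusted p = 0.819) in the combination against DMSO and 0.20 (SE 0.059, adjusted p = 0.00966) between the treatments, by edgeR; the second of these turned sign with upper-quartile factors, to 0.05, and was called in no alternative. ORC5 stood at 19.9, 21.6, 21.8 and 20.2 CPM in DMSO, 15.6, 15.8, 15.6 and 14.5 CPM in MI-503 and 18.1, 18.1 and 17.4 CPM in the combination, so the 3 treatments did not overlap and MI-503 was the lowest. Its log2 fold change was -0.44 (SE 0.060, adjusted p = 1.26e-05), -0.22 (SE 0.064, adjusted p = 0.0057) and 0.21 (SE 0.065, adjusted p = 0.0116) in the same order, again by edgeR. Between the treatments ORC4 and ORC5 lost their call without combination replicate 1 (adjusted p = 0.0624 and 0.0556) and without combination replicate 2 (0.0604 and 0.0771), in edgeR refits.

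ORC2 (chr2:200908977-200963701, minus strand), which pairs with ORC3 in the complex, stood at 43.8, 43.1, 40.8 and 44.2 CPM in DMSO, 44.4, 40.5, 38.9 and 40.1 CPM in MI-503 and 43.2, 40.3 and 38.2 CPM in the combination. The 3 groups overlapped, and no comparison passed the test (edgeR adjusted p = 0.287, 0.235 and 0.913). Per length the DMSO order in the complex was ORC6 at 26.2 ± 1.77 RPKM (the CPM divided by exon length, SD, n = 4), ORC1 at 23.3 ± 1.37, ORC2 at 8.49 ± 0.299, ORC3 at 7.57 ± 0.373, ORC5 at 5.22 ± 0.239 and ORC4 at 3.28 ± 0.111 RPKM. In the combination ORC3, at 13.9 ± 2.88 RPKM (n = 3), lay close to ORC1 at 14.9 ± 2.46 and ORC6 at 17.3 ± 2.69, within the spread of these libraries. In ORC2 and ORC4, 5.05% and 8.37% of exon bases overlap another gene, and fragments over both were not counted.

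**Figure D3:**
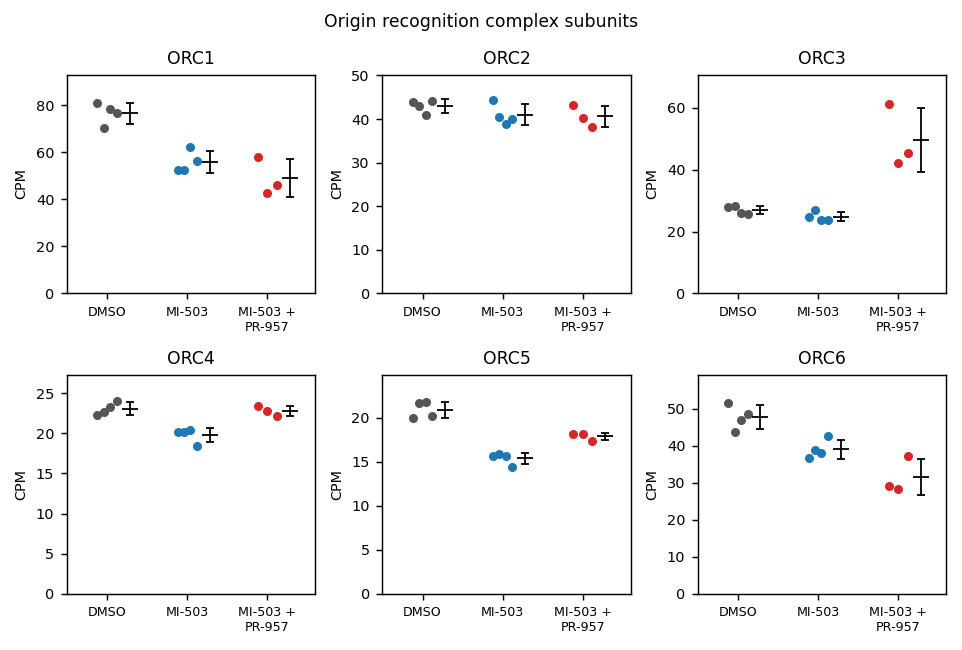
CPM of the 6 subunits of the origin recognition complex in each library (points), with the group mean and SD beside them (black), on axes that start at 0. ORC1 and ORC6 step down, ORC2 stays level, ORC4 and ORC5 dip in MI-503, and ORC3 is higher in the combination, with replicate 1 at 61.3 CPM.

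Helicase loading depends on CDC6, an ATPase that joins the origin recognition complex, and on CDT1, which brings MCM2-7 to it. CDC6 (chr17:40287878-40304657, plus strand) stood at 90.7, 81.5, 82.1 and 83.99 CPM in DMSO, 48.97, 52.02, 55.99 and 57.1 CPM in MI-503 and 29.2, 38.1 and 39.1 CPM in the combination. Groups did not overlap, and combination replicate 1 was the lowest library. CDC6 fell by 36.8% in MI-503, a log2 fold change of -0.66 (SE 0.075, adjusted p = 1.57e-06), and by 58.5% in the combination, -1.27 (SE 0.085, adjusted p = 1.01e-09), both by edgeR, and its MI-503 change was the lowest of the 46. The combination value was -1.11 without its replicate 1.

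CDT1 (chr16:88803789-88809258, plus strand) moved less. It stood at 246, 255, 254 and 235 CPM in DMSO, 210.4, 218, 224 and 214 CPM in MI-503 and 199.6, 143 and 153 CPM in the combination, so that MI-503 lay just below DMSO and combination replicate 1 lay between MI-503 and the other combination libraries. Its log2 fold change was -0.19 (SE 0.073, adjusted p = 0.0374) in MI-503 and -0.58 (SE 0.080, adjusted p = 7.13e-06) in the combination by edgeR. The first call was lost with other scaling factors, with DESeq2, with a stricter filter and without any 1 of DMSO replicates 1, 2 and 3, MI-503 replicates 1, 2 and 4 and combination replicate 4, with adjusted p from 0.0596 to 0.176. GMNN, the inhibitor of CDT1, fell in all 3 comparisons, with log2 fold changes of -0.54, -0.88 and -0.34. Leaving out combination replicate 1 gave -0.72 for CDT1 and -0.77 for GMNN in the combination against DMSO.

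The MCM2-7 ring, the motor that unwinds DNA, had 6 of 6 subunits lower in each comparison. Together they held the largest share of the members' counts, at 2767 ± 59.4 CPM in DMSO, 2129 ± 128 CPM in MI-503 and 1389 ± 134 CPM in the combination. MCM2 (chr3:127598411-127622436, plus strand) stood at 295, 293, 293 and 287 CPM in DMSO, 232, 243, 262 and 259.5 CPM in MI-503 and 149, 156 and 175 CPM in the combination. MCM3 (chr6:52264015-52284742, minus strand) stood at 488, 458, 468 and 468 CPM in DMSO, 370.03, 386, 432 and 412 CPM in MI-503 and 256, 256 and 278 CPM in the combination. Both stepped down without overlap, less at the first step than at the second: the log2 fold changes were -0.23 (SE 0.050, adjusted p = 0.00109) and -0.23 (SE 0.049, adjusted p = 0.000701) in MI-503, and -0.64 (SE 0.056, adjusted p = 1.05e-07) and -0.60 (SE 0.054, adjusted p = 1.43e-07) from MI-503 to the combination, by edgeR. Of MCM2's exon bases 31.4% overlap another gene, LOC107986126. Between the treatments the values without combination replicate 1 were -0.61 and -0.61.

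MCM4, on chromosome 8, stood at 763, 724, 741 and 754 CPM in DMSO, 537, 556, 598 and 607 CPM in MI-503 and 317, 358 and 386 CPM in the combination. MCM5 (chr22:35400133-35454942, plus strand) stood at 346, 332, 358 and 341 CPM in DMSO, 260.2, 263, 293 and 285 CPM in MI-503 and 169, 183 and 213 CPM in the combination. In both genes the 3 groups were separate, with log2 fold changes against DMSO of -0.38 (SE 0.055, adjusted p = 2.6e-05) and -1.08 (SE 0.062, adjusted p = 1.68e-10) for MCM4 and of -0.32 (SE 0.061, adjusted p = 0.000285) and -0.87 (SE 0.067, adjusted p = 6.11e-09) for MCM5 by edgeR. MCM4 thus fell beyond 2-fold in the combination and MCM5 did not. With combination replicate 1 left out they stood at -0.98 and -0.77, and then neither passed 2-fold.

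MCM6 (chr2:135839626-135876443, minus strand) stood at 269, 247, 263 and 267 CPM in DMSO, 163, 172, 184 and 188 CPM in MI-503 and 105, 120.2 and 133 CPM in the combination. MCM7 (chr7:100092728-100101397, minus strand) stood at 669, 634, 661 and 649 CPM in DMSO, 422, 438, 481 and 471 CPM in MI-503 and 259.5, 314 and 338 CPM in the combination. These subunits had the lowest fold changes of the ring at both treatments, -0.57 (SE 0.062, adjusted p = 1.15e-06) and -0.53 (SE 0.065, adjusted p = 3.64e-06) in MI-503 and -1.13 (SE 0.069, adjusted p = 3.52e-10) and -1.11 (SE 0.072, adjusted p = 7.33e-10) in the combination, by edgeR. The combination values without its replicate 1 were -1.03 and -0.98, and MCM7 was then level with MCM4 at -0.98. In all 6 ring genes combination replicate 4 was the highest library of its group, and the replicates of MI-503 numbered 1 and 2 lay below those numbered 3 and 4.

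The ring takes 1 copy of each subunit, so their levels were also set side by side per length. In DMSO MCM7 was highest at 210.1 ± 4.93 RPKM, then MCM4 at 178 ± 4.06, MCM3 at 136 ± 3.59, MCM5 at 83.9 ± 2.71, MCM2 at 82.4 ± 0.941 and MCM6 at 69.7 ± 2.66. As measured, MCM5 and MCM2 did not differ beyond their spread, and the means of the other neighbours were further apart than their SDs. Of MCM2's exon bases 31.4% overlap another gene, and fragments over both were not counted. Its RPKM can thus be too low, which limits its comparison with MCM5 and MCM6 and the shares below. As a share of the 6 subunits' summed RPKM, MCM7 made up 27.6 ± 0.137% in DMSO (SD, n = 4), 25.0 ± 0.0649% under MI-503 (n = 4) and 25.6 ± 1.19% under both inhibitors (n = 3), and MCM6 made up 9.16 ± 0.191%, 8.07 ± 0.124% and 8.32 ± 0.203%. MCM3 went from 17.9 ± 0.188% to 19.8 ± 0.287% and 20.01 ± 1.27%, and MCM4 made up 23.5 ± 0.238%, 23.6 ± 0.279% and 22.2 ± 0.243%, lower in the combination by more than these SDs. The order of the subunits by RPKM was MCM7, MCM4 and MCM3 from the top in all 3 groups, and MCM6 was last.

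**Figure D4:**
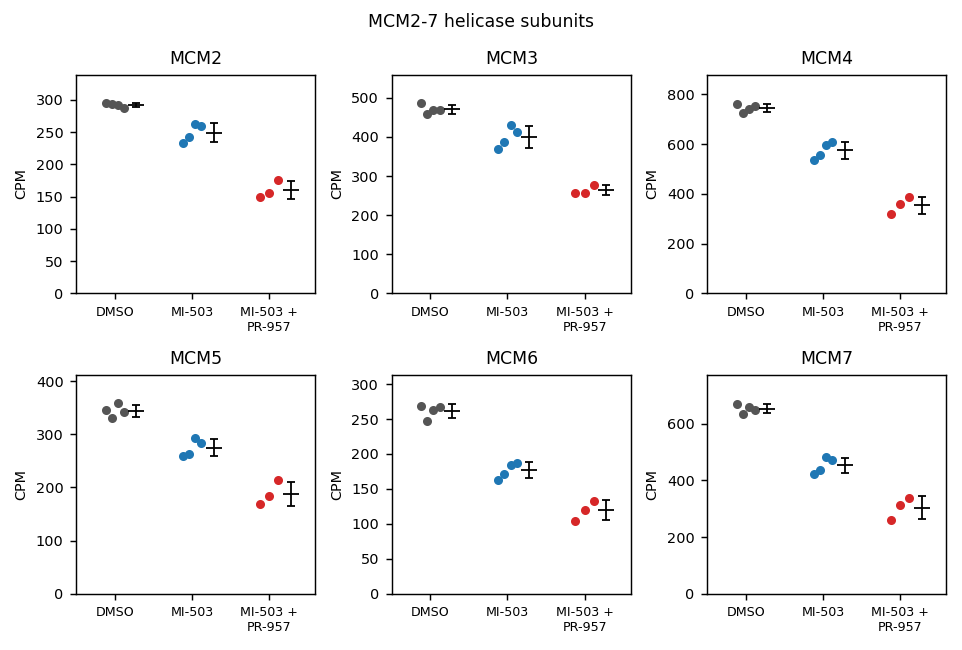
CPM of the 6 MCM2-7 genes in each library (points), with the group mean and SD beside them (black), on axes that start at 0. In each gene the 4 DMSO libraries lie above the 4 MI-503 libraries and these above the 3 combination libraries, as with MCM7, which went from a mean of 653 to 453 and 304 CPM.

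Helicase activation turns the loaded ring into a working helicase: CDC45 and the 4 GINS subunits bind it, and MCM10 helps to start it. GINS2 (chr16:85676198-85688954, minus strand) stood at 42.9, 38.2, 41.9 and 42.99 CPM in DMSO, 26.7, 26.9, 30.9 and 31.3 CPM in MI-503 and 13.6, 15.5 and 18.97 CPM in the combination. The groups were far apart, and its log2 fold change of -1.39 (SE 0.096, adjusted p = 1.6e-09) in the combination was the lowest of the 46 by edgeR, after -0.52 (SE 0.083, adjusted p = 5.63e-05) in MI-503. GINS4, on chromosome 8, changed least of the sub-group in the combination. It stood at 89.4, 83.99, 94.5 and 90.02 CPM in DMSO, 60.7, 60.9, 70.8 and 67.4 CPM in MI-503 and 56.3, 50.8 and 61.1 CPM in the combination, with log2 fold changes of -0.46 (SE 0.061, adjusted p = 8.05e-06) in MI-503 and -0.67 (SE 0.067, adjusted p = 1.33e-07) in the combination by edgeR, and its combination and MI-503 libraries overlapped (adjusted p = 0.0169, and 0.0635 without MI-503 replicate 3). MCM10, CDC45, GINS1 and GINS3 lay between, at -1.31, -1.01, -0.85 and -0.99 in the combination against DMSO. Dropping combination replicate 1 gave -1.24 for GINS2, -0.65 for GINS4 and, for these 4 genes, -1.18, -0.87, -0.80 and -0.97.

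Polymerases and primase came next. Primase (PRIM1 and PRIM2) and DNA polymerase alpha (POLA1 and POLA2) lay the first primer, polymerase epsilon (POLE and POLE2) extends the leading strand and polymerase delta (POLD1, POLD2 and POLD3) the lagging strand. POLE2 (chr14:49643552-49688417, minus strand) had the lowest change in the combination with all libraries in the fit. It stood at 22.6, 19.4, 21.9 and 22.8 CPM in DMSO, 15.4, 15.5, 17.6 and 17.97 CPM in MI-503 and 10.6, 12.1 and 12.6 CPM in the combination, with log2 fold changes of -0.39 (SE 0.078, adjusted p = 0.000532) and -0.89 (SE 0.087, adjusted p = 1.08e-07) against DMSO by edgeR and no overlap between groups. PRIM2 (chr6:57314805-57646852, plus strand) had the smallest change there. It stood at 37.2, 36.5, 37.9 and 37.3 CPM in DMSO, 31.3, 30.8, 34.8 and 34.6 CPM in MI-503 and 33.8, 30.6 and 30.6 CPM in the combination, so both treatments were below DMSO and overlapped each other, with -0.18 (SE 0.055, adjusted p = 0.0104) in MI-503, -0.23 (SE 0.059, adjusted p = 0.00257) in the combination and -0.05 (SE 0.059, adjusted p = 0.528) between them by edgeR; the MI-503 call was lost without MI-503 replicate 2 (adjusted p = 0.0502).

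POLD2 (chr7:44114680-44123668, minus strand), a small subunit of polymerase delta, stood at 174, 177, 176 and 165 CPM in DMSO, 147, 155, 159.7 and 149.997 CPM in MI-503 and 94.1, 104 and 105 CPM in the combination. MI-503 lay a little below DMSO and the combination far below both: the log2 fold change was -0.18 (SE 0.044, adjusted p = 0.00306) in MI-503 and -0.60 (SE 0.049, adjusted p = 5.13e-08) from there to the combination by edgeR. The other 6 genes of the sub-group, the catalytic subunits POLA1, POLD1 and POLE among them, had log2 fold changes against DMSO from -0.43 (POLA2) to -0.23 (POLE) in MI-503 and from -0.87 (POLA1) to -0.50 (POLD3) in the combination. Without combination replicate 1, POLE2 and PRIM2 had -0.79 and -0.27 in the combination against DMSO, and POLD2 and PRIM2 had -0.58 and -0.13 between the treatments, PRIM2 again not called (edgeR adjusted p = 0.09). In that fit POLA1, at -0.82 against DMSO, was lower than POLE2.

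PCNA, the ring that tethers polymerases to DNA, and the RFC1 to RFC5 loader that opens it were lower in all 3 comparisons. RFC3 (chr13:33818069-33973946, plus strand) stood at 153, 135, 141 and 153 CPM in DMSO, 105, 112, 114 and 121 CPM in MI-503 and 78.2, 65.1 and 78.4 CPM in the combination, with no overlap, and its log2 fold change was -0.36 (SE 0.061, adjusted p = 9.46e-05) in MI-503 and -0.97 (SE 0.068, adjusted p = 1.85e-09) in the combination by edgeR. RFC1 (chr4:39287456-39366381, minus strand), the large subunit, stood at 116, 115, 106 and 110.2 CPM in DMSO, 92.02, 91.6, 94.6 and 91.1 CPM in MI-503 and 92.1, 74.96 and 73.6 CPM in the combination. Its combination replicate 1 lay within the MI-503 range while the other combination libraries were below it, and its log2 fold change was -0.27 (SE 0.059, adjusted p = 0.000921), -0.47 (SE 0.065, adjusted p = 5.77e-06) and, between treatments, -0.20 (SE 0.064, adjusted p = 0.0181) by edgeR. The difference between treatments was -0.34 without combination replicate 1 (edgeR adjusted p = 1.89e-06), and against DMSO RFC1 had -0.57 and RFC3 -0.99. PCNA's mean was 172 ± 6.903 CPM (SD, n = 4) in DMSO, 134 ± 9.26 CPM (SD, n = 4) in MI-503 and 89.3 ± 16.1 CPM (SD, n = 3) in the combination, and 26.7% of its exon bases overlap PCNA-AS1. RFC2, RFC4 and RFC5 fell by 0.80, 0.58 and 0.73 on the log2 scale in the combination against DMSO.

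RPA, made of RPA1, RPA2 and RPA3, coats the single-stranded DNA that the helicase exposes. RPA3 (chr7:7636518-7718607, minus strand) stood at 25.7, 23.8, 23.2 and 26.1 CPM in DMSO, 18.01, 19.1, 20.7 and 19.4 CPM in MI-503 and 12.4, 14.3 and 14.1 CPM in the combination and had log2 fold changes of -0.36 (SE 0.067, adjusted p = 0.000265) and -0.87 (SE 0.075, adjusted p = 2.15e-08) by edgeR. RPA2 (chr1:27891524-27914797, minus strand) stood at 82.9, 85.4, 85.4 and 84.8 CPM in DMSO, 70.4, 71.9, 79.98 and 72.5 CPM in MI-503 and 66.6, 65.1 and 67.3 CPM in the combination. It moved less, -0.20 (SE 0.043, adjusted p = 0.000985) and -0.35 (SE 0.047, adjusted p = 4.75e-06) by edgeR, with DMSO apart from MI-503 and MI-503 apart from the combination. Between the treatments its call (-0.15) was lost without MI-503 replicate 3 (edgeR adjusted p = 0.0525). RPA1, the large subunit, had -0.39 and -0.67. In the combination without replicate 1, RPA1, RPA2 and RPA3 had -0.64, -0.33 and -0.78.

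Okazaki fragments of the lagging strand are trimmed by the nuclease FEN1 and joined by the ligase LIG1. FEN1 (chr11:61792911-61797238, plus strand) stood at 168, 162, 161 and 163 CPM in DMSO, 115, 117, 133 and 129 CPM in MI-503 and 67.2, 81.4 and 94.1 CPM in the combination. LIG1 (chr19:48115445-48170603, minus strand) stood at 164, 153, 169 and 158 CPM in DMSO, 125, 125, 135 and 131 CPM in MI-503 and 87.4, 97.3 and 103 CPM in the combination. All 3 groups were separate in both genes, and FEN1 fell by 50.8% and LIG1 by 40.7% in the combination against DMSO, log2 fold changes of -1.02 (SE 0.083, adjusted p = 1.05e-08) and -0.75 (SE 0.056, adjusted p = 3.54e-09) by edgeR. In MI-503 the edgeR values were -0.41 (SE 0.074, adjusted p = 0.000198) and -0.32 (SE 0.051, adjusted p = 5e-05). The combination had -0.88 and -0.67 without its replicate 1.

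Nucleotide supply was covered by thymidylate synthase (TYMS), which makes dTMP, thymidine kinase (TK1), which salvages it, and the ribonucleotide reductase subunits RRM1 and RRM2. TYMS (chr18:657653-673578, plus strand) stood at 98.6, 87.6, 91.2 and 93.3 CPM in DMSO, 61.1, 67.5, 68.1 and 71.97 CPM in MI-503 and 36.5, 41.8 and 47.1 CPM in the combination, and its log2 fold change was -0.46 (SE 0.066, adjusted p = 1.91e-05) in MI-503 and -1.16 (SE 0.075, adjusted p = 7.05e-10) in the combination by edgeR. Since 59.6% of its exon bases overlap ENOSF1 or TYMSOS, and fragments over several genes were left out, its count holds part of its transcript. RRM1 (chr11:4094685-4138932, plus strand), the large subunit, stood at 193, 176, 189 and 189.5 CPM in DMSO, 122, 126, 135 and 131 CPM in MI-503 and 125, 107 and 120.1 CPM in the combination. It was lower in both treatments, -0.54 (SE 0.051, adjusted p = 1.88e-07) and -0.67 (SE 0.056, adjusted p = 1.41e-08) by edgeR, while combination replicate 1 lay within the MI-503 range. Between treatments RRM1 had -0.13 (SE 0.055, adjusted p = 0.0709) by edgeR, and it was called without combination replicate 1 (0.00325), without combination replicate 4 (0.0201) and without MI-503 replicate 1 (0.0467). RRM2, the small subunit whose level is known to follow S phase, fell by 34.5% and 49.4%, with log2 fold changes of -0.61 (SE 0.081, adjusted p = 8.69e-06) and -0.98 (SE 0.090, adjusted p = 4.5e-08) by edgeR. TK1 fell by 31.7% and 53.2% and had the widest spread in the combination, a coefficient of variation of 22.4%. Against DMSO, the combination without replicate 1 had -1.04 for TYMS, -0.70 for RRM1, -0.86 for RRM2 and -0.90 for TK1.

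UHRF1 (chr19:4903080-4962154, plus strand) binds hemimethylated DNA behind the fork and brings the methyltransferase DNMT1 to it. It stood at 330.1, 316, 321 and 312 CPM in DMSO, 231, 240.2, 255 and 262 CPM in MI-503 and 168, 181 and 212 CPM in the combination. The groups were separate, and the log2 fold change was -0.37 (SE 0.060, adjusted p = 6.55e-05) in MI-503 and -0.77 (SE 0.066, adjusted p = 1.87e-08) in the combination by edgeR. DNMT1 itself, which is not a member, had -0.32 (SE 0.047, adjusted p = 2.82e-05) and -0.73 (SE 0.052, adjusted p = 2.15e-09) by edgeR. UHRF1 had -0.68 in the combination without replicate 1.

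The size of the second step, from MI-503 to the combination, was tested against that of the first, from DMSO to MI-503, as a difference of log2 fold changes. This contrast asks where PR-957 added more or less than MI-503 had done, and is no test of synergy. By edgeR 5 members had a lower second step (10.9% of members, against 16.0% of all genes tested) and 5 a higher one (against 19.2%), so for most members the steps were not called different, and both shares lay below those of all genes in this fit. The count of lower members depended on single libraries. It was 10 without combination replicate 1 (21.7% of members, 22.8% of all genes), 14 without combination replicate 4 (30.4% and 20.9%) and 3 without MI-503 replicate 4 (6.52% and 14.4%). With upper-quartile factors it was 10 (21.7% and 18.9%), and the higher members numbered 4, so whether the members' share lay above or below that of all genes also depended on the setting. Higher members numbered 5 with and without combination replicate 1, but without it GMNN was called (0.22, edgeR adjusted p = 0.0312) and POLA2 was not (0.0661).

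The lower ones were POLD2 at -0.42 (SE 0.079, adjusted p = 0.00053), MCM2 at -0.41 (SE 0.090, adjusted p = 0.00189), MCM3 at -0.37 (SE 0.087, adjusted p = 0.00325), MCM4 at -0.32 (SE 0.098, adjusted p = 0.0163) and GINS1 at -0.30 (SE 0.093, adjusted p = 0.0187), by edgeR. MCM4 and GINS1 lost their call without MI-503 replicate 4, and MCM4 also without MI-503 replicate 3. Without combination replicate 1, CDT1 was called as well, at -0.42 (edgeR adjusted p = 4.05e-05). So were RFC3 at -0.36 (0.00621), POLE at -0.24 (0.0122), PRIM1 at -0.20 (0.038) and MCM5 at -0.22 (0.0495). The higher ones were ORC3 at 1.13 (SE 0.17, adjusted p = 7.32e-05), ORC5 at 0.65 (SE 0.11, adjusted p = 0.000184), RRM1 at 0.42 (SE 0.091, adjusted p = 0.00194), ORC4 at 0.42 (SE 0.099, adjusted p = 0.00321) and POLA2 at 0.24 (SE 0.092, adjusted p = 0.0492), again by edgeR. They fall into different patterns: ORC3 rose at the second step, ORC4 and ORC5 fell and then turned, and RRM1 and POLA2 fell mostly at the first step. POLA2 lost its call in every alternative run but the one without DMSO replicate 2.

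**Figure D5:**
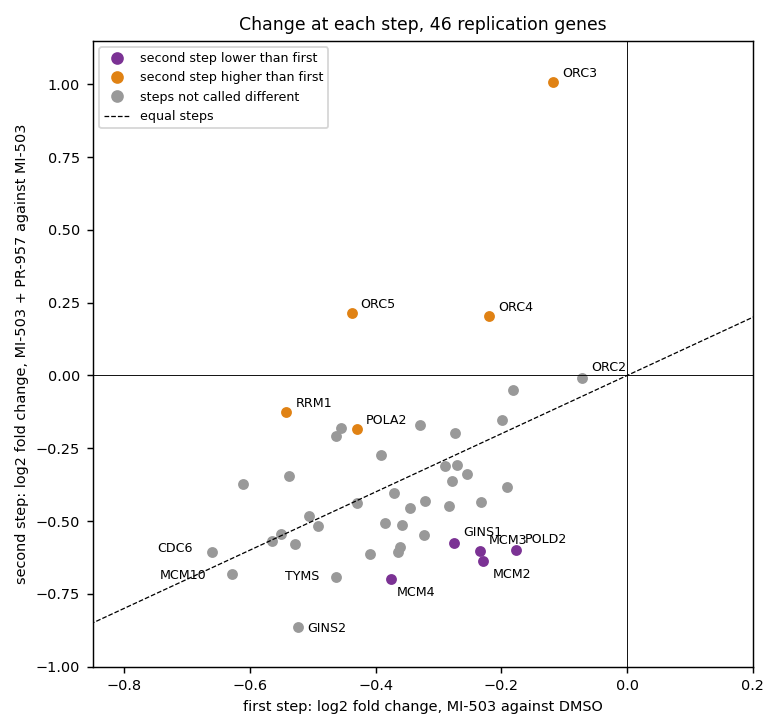
Each point is 1 of the 46 genes, with the log2 fold change of MI-503 against DMSO on the x axis and of the combination against MI-503 on the y axis; both use the same MI-503 libraries. Purple points lie below the dashed line of equal steps (MCM2, MCM3, MCM4, GINS1, POLD2) and orange points above it (ORC3, ORC4, ORC5, RRM1, POLA2), with ORC3 alone at the top, at 1.01.

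Other genes of the pathway were taken from a list of 71, of which 69 were tested. Of these 51 were lower and 4 higher in MI-503 (29.3% and 22.0% of all genes tested), 57 lower and 6 higher in the combination against DMSO (32.8% and 31.7% of all genes), and 44 lower and 6 higher in the combination against MI-503 (23.8% and 23.6%), with median log2 fold changes of -0.31, -0.66 and -0.38. Firing factors (TICRR, TOPBP1, RECQL4, MTBP and DONSON), which help CDC45 and GINS onto the ring, were lower in 5 of 5 under either treatment against DMSO, as were all 6 genes of nucleosome assembly and maintenance methylation. Of 8 genes for firing kinases and cyclins 6 were lower in MI-503 and 7 in the combination. CHTF8 had 0 counts in each library: all of its exon bases (100.0%) overlap DERPC or HAS3, and fragments over several genes were not counted.

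Among those called in the combination against DMSO, E2F5, DSCC1, CDC25A and E2F8 had the lowest log2 fold changes. DSCC1, a subunit of an alternative clamp loader, stood at 29.3, 27.2, 27.3 and 29.8 CPM in DMSO, 21.99, 20.4, 20.9 and 21.1 CPM in MI-503 and 11.3, 11.9 and 12.2 CPM in the combination, and had -1.27 (SE 0.065, adjusted p = 4.35e-11) against DMSO by edgeR. CDC25A, the phosphatase that activates CDK2, stood at 56.6, 52.2, 51.04 and 54.1 CPM in DMSO, 34.8, 34.9, 37.3 and 39.2 CPM in MI-503 and 19.9, 22.7 and 24.6 CPM in the combination, and had -1.26 (SE 0.071, adjusted p = 1.39e-10) by edgeR. In both the 3 groups were separate. DUT, which keeps uracil out of DNA, was close behind at -1.26. For DSCC1, CDC25A and DUT, leaving out combination replicate 1 gave -1.21, -1.15 and -1.11.

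The highest were SAMHD1, POLD4, DBF4B and E2F6. SAMHD1, an enzyme that breaks down deoxynucleotides and thus works against their supply, stood at 89.2, 103, 88.1 and 88.02 CPM in DMSO, 190.2, 188, 192 and 189 CPM in MI-503 and 182, 218 and 237 CPM in the combination. It rose in MI-503, 1.04 (SE 0.068, adjusted p = 2.87e-09) by edgeR, and was not called between the treatments, 0.16 (SE 0.071, adjusted p = 0.0746). DMSO was below all treated libraries, which overlapped each other, and 18.4% of its exon bases are shared with TLDC2. POLD4, the smallest subunit of polymerase delta, stood at 28.3, 30.05, 29.7 and 23.8 CPM in DMSO, 37.4, 39.4, 36.9 and 34.8 CPM in MI-503 and 46.8, 62.2 and 61.6 CPM in the combination and rose while the other subunits fell, 0.41 (SE 0.089, adjusted p = 0.00098) and 1.02 (SE 0.093, adjusted p = 4.77e-08) against DMSO by edgeR. DBF4B, an activator of the kinase CDC7, stood at 40.2, 39.9, 42.97 and 38.3 CPM in DMSO, 41.7, 40.5, 35.1 and 39.5 CPM in MI-503 and 53.7, 51.02 and 50.6 CPM in the combination; it was called in the combination, 0.36 (SE 0.060, adjusted p = 4.42e-05) by edgeR, and its close relative DBF4 fell, -0.91 (SE 0.061, adjusted p = 1.01e-09). ASF1A, a histone chaperone, fell at the first step and then rose, -0.99 (SE 0.055, adjusted p = 4.37e-10) and 0.35 (SE 0.059, adjusted p = 0.00012) by edgeR, and was chosen after its values were seen. With combination replicate 1 left out, the combination against DMSO gave 1.32 for SAMHD1, 1.16 for POLD4 and 0.35 for DBF4B.

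E2F factors regulate many members, E2F1 to E2F3 as activators and E2F4 to E2F8 mostly as repressors. E2F1 stood at 59.4, 57.8, 65.5 and 60.9 CPM in DMSO, 40.9, 42.8, 50.1 and 48.3 CPM in MI-503 and 26.6, 34.7 and 39.8 CPM in the combination, and its groups were separate, with -0.42 (SE 0.093, adjusted p = 0.00112) in MI-503 and -0.86 (SE 0.10, adjusted p = 1.16e-06) in the combination by edgeR. E2F2 was not tested, at no more than 0.184 CPM in any library. E2F3 stood at 92.9, 83.5, 90.8 and 94.002 CPM in DMSO, 74.01, 77.7, 83.2 and 83.1 CPM in MI-503 and 71.1, 77.4 and 76.6 CPM in the combination, and E2F4 at 128, 117, 129.96 and 125 CPM in DMSO, 105, 113, 118 and 116 CPM in MI-503 and 98.5, 112 and 113 CPM in the combination. Both were slightly lower than in DMSO, E2F3 at -0.18 and -0.27 and E2F4 at -0.15 and -0.22, and neither was called between the treatments (edgeR adjusted p = 0.216 and 0.342).

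The repressors E2F7 and E2F8, themselves made in S phase, fell with the members. E2F7 stood at 41.4, 35.98, 36.8 and 36.9 CPM in DMSO, 29.02, 28.8, 30.6 and 30.3 CPM in MI-503 and 18.6, 20.02 and 22.02 CPM in the combination. E2F8 stood at 65.2, 64.97, 61.4 and 63.3 CPM in DMSO, 45.96, 48.7, 53.1 and 56.3 CPM in MI-503 and 21.7, 27.04 and 31.8 CPM in the combination. Groups were separate in both, and in the combination the log2 fold changes against DMSO were -0.91 (SE 0.068, adjusted p = 4.16e-09) and -1.26 (SE 0.097, adjusted p = 5.54e-09) by edgeR. E2F6 stood at 20.7, 21.3, 18.6 and 19.9 CPM in DMSO, 18.9, 18.2, 18.3 and 19.2 CPM in MI-503 and 25.4, 24.99 and 24.1 CPM in the combination; the combination lay above the rest, 0.30 (SE 0.061, adjusted p = 0.000306) against DMSO by edgeR, and MI-503 was not called, -0.11 (SE 0.058, adjusted p = 0.124). E2F5 was low throughout, at 5.43, 5.79, 5.597 and 5.65 CPM in DMSO, 2.78, 2.703, 2.23 and 2.09 CPM in MI-503 and 2.67, 2.21 and 1.302 CPM in the combination, with both treatments below DMSO and overlapping each other. Its log2 fold changes were -1.19 (SE 0.16, adjusted p = 1.22e-05) and -1.41 (SE 0.18, adjusted p = 2.56e-06) by edgeR, and 22.5% of its exon bases are shared with RBIS. TFDP1, a partner with which E2F1 to E2F6 bind DNA, had -0.18 in MI-503 and -0.69 in the combination. Left without combination replicate 1, E2F1, E2F5, E2F6, E2F7 and E2F8 had -0.68, -1.70, 0.30, -0.82 and -1.09 in the combination against DMSO.

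A list of 20 genes of mitosis was set beside the members, since both belong to dividing cells. Of these 15 were lower in MI-503 (29.3% of all genes tested), 20 in the combination against DMSO (32.8%) and 20 in the combination against MI-503 (23.8%), with median log2 fold changes of -0.27, -0.77 and -0.47 and none higher. Without combination replicate 1, 1 was called higher in MI-503, as were 4141 of all 14751 genes then tested. In that fit the combination medians were -0.83 against DMSO and -0.59 against MI-503, and those of the members -0.74 and -0.42. Which list had the lower median against DMSO thus depended on that library. TTTGAA lay in 68.4% of their promoter windows and in 1.89% of those of the members, against 10.9% of the windows of tested genes. E2F-type octamers lay in 21.1% and 39.6%, against 4.91%, so both lists were above tested genes in octamers. The libraries of the combination did not rank alike for both lists. The mean log2 level relative to DMSO over the members was -0.80, -0.77 and -0.65 in combination replicates 1, 2 and 4, and over the mitosis genes -0.58, -0.91 and -0.76. No test was made between the lists.

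Within groups the members spread little in DMSO, with a median coefficient of variation of 4.01%, against 5.79% in MI-503 and 8.70% in the combination. In 36 of the 46, MI-503 replicates 1 and 2 were both below replicates 3 and 4, and the share of all genes with that order was not counted. These libraries also split in this way over all genes. The chi-square divided by the degrees of freedom was 1.71 between replicates 1 and 2 and 2.04 between replicates 3 and 4. Across these pairs it was 3.43 to 4.68. In the combination replicate 1 was the lowest library for 27 members and the highest for 10, and replicate 4 was the highest for 32. ORC1 to ORC4, CDT1, PRIM1, PRIM2, POLD3, RFC1 and RRM1 were highest in replicate 1, whereas CDC6, MCM2, MCM4 to MCM7, GINS2, PCNA, FEN1, TYMS and TK1 were among those lowest in it.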

How the data were processed

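RNA-seq of MOLM-13 cells was read from the raw count tables that the authors deposited, 1 per library, joined by gene. Per the labels and the submitters' processing notes, reads were trimmed (Trimmomatic 0.39), aligned to hg38 (STAR 2.7.10a) and counted over RefSeq exons by gene (featureCounts 2.0.1), without regard to strand and without fragments that fit several places or genes, so genes that overlap another lose counts. The authors' tables of log2 fold changes, standard errors and p-values from DESeq2 were not used. Rows with too few counts were removed (filterByExpr, minimum count 10, minimum total 15), which left 14683 of 38557 genes, all 46 members included. Libraries were scaled by TMM (factors 0.956 to 1.06), and 1 quasi-likelihood model over the 3 groups was fitted with edgeR 4.0.16 in R 4.3.3 (biological coefficient of variation 6.14%, 8 residual degrees of freedom), with p adjusted by Benjamini-Hochberg across every tested gene. RPKM used the summed exon length. The fit was tested on simulated data.

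Alternatives were other scaling factors, no filter and a stricter one (mean of 5 CPM), DESeq2 1.42.0, limma-voom (limma 3.58.1), the compared groups alone, a replicate block, each library left out, and an adjusted p under 0.01. Members and lists were chosen with earlier results of these data known. Genes named with values were all members of MCM2-7, the lowest and highest log2 fold change of each sub-group in the combination against DMSO, members that rose or were not called, the largest differences between steps, E2F1 to E2F8, and the 4 lowest and 4 highest of the wider list. Others of the wider list (DUT, DBF4, DNMT1, TFDP1, ASF1A and those in the closing section) were named after their values were seen. Tables and figures were made in Python 3.11.15 (pandas 2.3.3, numpy 2.4.6, matplotlib 3.10.9). Same-numbered libraries of MI-503 and the combination deviated together from their group means (r = 0.141, 0.149 and 0.211). Some libraries of different number did so as well, and others did not. MI-503 replicate 3 had r = 0.269 with combination replicate 4, and MI-503 replicate 1 had r = 0.129 with combination replicate 2. The values thus do not establish a pairing by number, and the labels state none. Same-numbered libraries of DMSO and the treatments did not all deviate together.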

Additional observations from a re-analysis of the deposited data

Results flagged for a closer look

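In 3 of 92 groups of 4 libraries (each member in DMSO and in MI-503) 1 library lay far from the other 3 by Dixon's criterion. Chance alone gives about 1 in 20 such groups, so the number is not above it. ORC4, a core subunit of the origin recognition complex, stood at 18.46 CPM in MI-503 replicate 4 and between 20.1 and 20.4 CPM in the other MI-503 libraries. CDC45, a part of the active helicase, stood at 67.13 CPM in DMSO replicate 2 and between 74.0 and 74.9 CPM in the other DMSO libraries. POLA2, the regulatory subunit of DNA polymerase alpha, stood at 67.41 CPM in DMSO replicate 1 and between 61.7 and 62.4 CPM in the others. The combination had 3 libraries and was not examined this way.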

How the results depend on the processing

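Over all alternatives and members, 904 of 920 results for MI-503 against DMSO kept direction and call, as did 915 of 920 for the combination against DMSO and 901 of 920 for the combination against MI-503; for the 10 members called between the steps it was 167 of 190. The log2 fold change of ORC4 in the combination against DMSO, near 0, turned sign with upper-quartile factors (0.0523), with no filter on low counts (0.00834), with the stricter filter (0.0544), without DMSO replicate 4 (0.00305) and without combination replicate 4 (0.00222), and was lowest without 1 library at -0.0329. That of ORC2 between the treatments ranged from -0.0874 to 0.0297 (without MI-503 replicate 1). The median of the members in MI-503 was -0.2925 with the stricter filter. The number of members with a lower second step was 10 with upper-quartile factors, 9 without a filter, 10 with the stricter filter and 3 at an adjusted p under 0.01; leaving out 1 library gave 3 to 14, with medians from -0.209 to -0.00866. Members higher between the treatments numbered 1 to 3 with 1 library left out. The causes were not tested.

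With the replicate number as a block, 44 members were lower in MI-503, 43 lower and 1 higher in the combination against DMSO, 39 and 3 between the treatments, and 6 and 5 between the steps, with medians of -0.36, -0.78, -0.43 and -0.03. Of all 14683 genes tested in that fit, 4326 were lower and 3304 higher in MI-503 against DMSO. The numbers were 4769 and 4543 in the combination against DMSO, and 3448 and 3365 between the treatments. Between the steps 16.1% of all genes were lower and 19.2% higher, and both shares lay above those of the members. Between DMSO and either treatment the values do not establish a pairing by number, and they cannot exclude one. Not every pair of the same number correlated above 0.1 (r from -0.252 to 0.285 over all 10 pairs), and 4 libraries correlated best with their own number. The block changed no call of a member in the 3 treatment comparisons. Depth did not limit these genes; the 3 combination libraries, 1 of which stands apart, limit the comparisons with PR-957.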

Other observations

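Of 8 listed genes that hold the fork together or watch over it, 5 were lower in MI-503 (29.3% of all genes tested), and 6 were lower and 1 higher in the combination against DMSO (32.8% and 31.7%). TIMELESS, TIPIN and CLSPN, which steady a stalled fork, and CHEK1, a checkpoint kinase, fell in both treatments, with log2 fold changes in the combination against DMSO of -0.76, -0.99, -0.71 and -0.92. ATR, the kinase above CHEK1, fell in MI-503 and was not called between the treatments, at -0.29 (SE 0.047, adjusted p = 7.03e-05) and -0.07 (SE 0.051, adjusted p = 0.289) by edgeR. RAD9A, a subunit of the checkpoint clamp, was not called in MI-503 and rose in the combination, at 0.22 (SE 0.064, adjusted p = 0.00562) by edgeR.

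Of 5 listed genes that act on the degradation of licensing factors, 5 were lower under either treatment against DMSO. DTL, the adaptor that marks CDT1 for degradation, SKP2, another such adaptor, and FBXO5, an inhibitor of the anaphase-promoting complex, also fell between the treatments, at -0.65, -0.53 and -0.41 on the log2 scale, whereas the ligase parts CUL4A and DDB1 were not called there (edgeR adjusted p = 0.403 and 0.479), and the difference between these genes was not tested. Among the pocket proteins that bind E2F factors, RBL1 (p107) had -0.90 (SE 0.068, adjusted p = 4.73e-09) in the combination against DMSO by edgeR, RB1 had -0.23 (SE 0.061, adjusted p = 0.0038), and RBL2 (p130), known for its part in resting cells, was not called in any of the 3 comparisons (adjusted p = 0.36, 0.0945 and 0.483). MCM8, a relative of the MCM2-7 subunits, had -0.75 (SE 0.048, adjusted p = 6.09e-10) by edgeR and MCM9, its partner, -0.05 (SE 0.082, adjusted p = 0.588). These genes were chosen after their values were seen, and no explanation was tested.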
